A study of Mus musculus with 4 samples.

Results

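MacroH2A islands along mouse chromosome 15 in C2C12 cells are described here by position, width and read density, and by what was gained and lost between myoblasts and myotubes. All islands whose listed chromosome is chr15 were taken, which gave 1614 of 30016 islands at day 0 and 1628 of 29473 islands at day 5. C2C12 is a mouse myoblast line, kept in growth medium with 20% fetal bovine serum and differentiated on Matrigel in medium with 2% horse serum. MacroH2A chromatin immunoprecipitation and sequencing gave a single library of myoblasts (day 0 in differentiation medium) and a single library of myotubes (day 5), beside 2 input samples that were not analysed here. Neither group carries a transgene or deletion in the labels. With 1 library of 1 cell line per group, differences between days are differences between 2 libraries, no test of differentiation is possible, and cell identity could not be checked, since no expression was measured.

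MacroH2A is a histone H2A variant in which a large macrodomain is joined to the histone fold. It is enriched on the inactive X chromosome of female cells and forms broad domains over autosomal chromatin, where it has been linked mostly to repressed genes and, at some genes, to activation. Its splice form macroH2A1.1 binds ADP-ribose derivatives made from NAD+, and this form becomes more abundant when myoblasts differentiate. The labels name the antibody as MacroH2A without a splice form. An island is a run of enriched 600 bp windows joined across short gaps, and each island comes with its number of reads. Chromosome 15 carries, read from its centromeric end in the RefSeq gene order of GRCm38, the growth hormone receptor gene Ghr and the cytokine receptor gene Lifr, then the type II cadherin genes Cdh6, Cdh9, Cdh10, Cdh12 and Cdh18. The matrix genes Ext1, Enpp2, Col14a1 and Has2 follow, and after them the growth regulator gene Myc with its noncoding neighbour Pvt1. The Ly6 surface antigen genes come next, then the myoglobin gene Mb, the nonmuscle myosin gene Myh9 and the cartilage collagen gene Col2a1. The type II keratin genes and the Hoxc developmental genes lie near the distal end. Island positions are in mm9, a different build, so no island was assigned to a gene and no sequence is printed.

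Islands of chromosome 15 were wide. The myoblast list covered 32.3 Mb and the myotube list 35 Mb, or 31.2% and 33.8% of the 103 Mb up to the last island. Median width was 12.6 kb at both days, with the middle of the distribution between 6.0 and 24.45 kb at day 0 and between 6.0 and 26.4 kb at day 5. The other 18 autosomes had medians of 7.2 kb and 7.8 kb in the same order of days. The length was concentrated in wide islands, since the widest 272 islands at day 0 and 260 at day 5, or 16.9% and 16.0% of them, made up 50% of it. Islands over 50 kb held 32.5% of the covered length at day 0 and 37.2% at day 5, against 9.16% and 9.99% on the other autosomes. Islands up to 5 kb were 18.9% and 18.2% by number but 3.28% and 2.95% by length. The median gap from 1 island to the next was 7.8 kb at both days, against 8.4 kb and 9.0 kb on the other autosomes. It was no shorter than on chromosomes 10 and 11, the next in coverage. Chromosome 10 had a median gap of 7.2 kb at both days, and chromosome 11 had 6.6 kb and 7.8 kb. Their median island widths were 8.4 kb and 7.8 kb in myoblasts, and 8.4 kb each in myotubes.

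**Figure D1:**
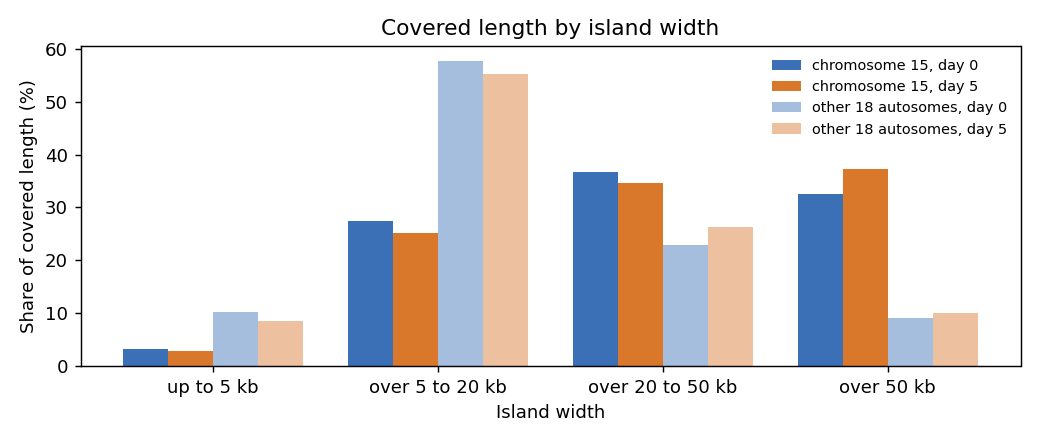
Share of the covered length (%, y axis) held by islands of 4 width classes (x axis), for chromosome 15 and for the other 18 autosomes together, each as 1 bar per library. Islands over 50 kb hold 32.5% and 37.2% of the length on chromosome 15 and 9.16% and 9.99% on the other autosomes, where islands over 5 to 20 kb hold the largest share.

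Read density inside islands was also high. In myoblasts the median was 80.8 and in myotubes 90.2 reads per kb, the highest median of any chromosome at both days. The other autosomes had medians of 72.7 and 80.6, so that chromosome 15 stood at 1.11 and 1.12 times their level. Within each width class the ratio lay between 1.05 and 1.11 at day 0 and between 1.05 and 1.12 at day 5, so islands of chromosome 15 were denser than islands of like width elsewhere. A median island of 993 reads (myoblasts) or 1132 reads (myotubes) carries a counting error of 3.17% or 2.97%. Input was not analysed here, so a higher amount of macroH2A and a higher amount of chromosome 15 DNA in these cells cannot be told apart, for density or for coverage.

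Along the chromosome, coverage rose and fell in blocks of several megabases that lay in the same places at both days. In segments of 10 Mb, the least covered were 40 to 50 Mb, with 13.0% at day 0 and 15.6% at day 5, and 10 to 20 Mb, with 14.4% and 12.8%. The most covered full segment was 50 to 60 Mb, with 55.5% and 60.2%. The distal end beyond 100 Mb, of 3.46 Mb, had 52.4% and 53.3%. Between 60 and 100 Mb the segments lay between 31.5% and 39.5% at day 0 and between 31.9% and 42.0% at day 5. The segment from 30 to 40 Mb had 36.9% and 38.0%. The order of the 11 segments was nearly the same at both days (Spearman correlation 0.94, given as a description since segments share a library). Island number followed coverage, from 6.2 islands per Mb at 10 to 20 Mb to 22 per Mb at 50 to 60 Mb and 24.0 per Mb beyond 100 Mb at day 0. By segment, width followed coverage less closely. The few islands of 10 to 20 Mb had the widest median at day 0, 17.1 kb, while those of 40 to 50 Mb had the narrowest, 7.2 kb. The segment from 10 to 20 Mb mixes unlike parts, however. At day 0, 53 islands from 10 to 13 Mb had a median of 22.2 kb at 46.5% coverage. From 13 to 22 Mb, 21 islands had a median of 4.2 kb at 1.06% coverage.

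**Figure D2:**
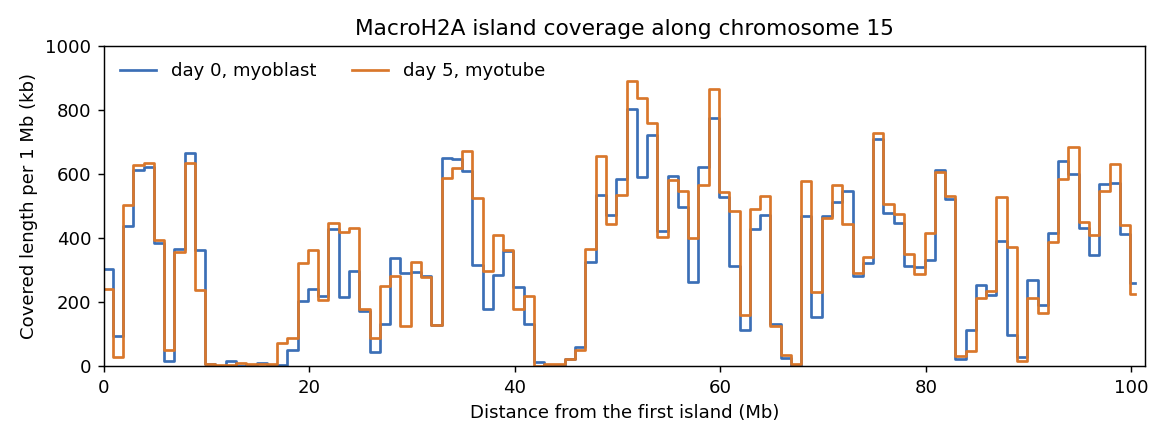
Covered length in each 1 Mb window (kb, y axis) against distance from the first island of either list (Mb, x axis), with 1 line per library. Both lines trace the same blocks, with a day 0 maximum of 805 kb, a day 5 maximum of 890 kb and a long stretch near 0 that starts about 10 Mb from the first island.

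In windows of 1 Mb, the median window had 307 kb covered at day 0 and 360 kb at day 5, while the median over the other autosomes was 63.9 kb and 75.6 kb. At least 500 kb was covered in 24 of 104 windows at day 0 and in 30 at day 5, and 23 windows passed at both days. On the other autosomes 2.44% and 2.49% of windows did so, against 23.1% and 28.8% here. The 5 most covered windows at day 0 began at 54, 62, 56, 78 and 11 Mb, with 805, 775, 723, 710 and 666 kb. At day 5 these windows had 890, 864, 759, 727 and 634 kb. Of these windows, the one at 11 Mb alone had less covered length at day 5. Neighbouring windows resembled each other, with a Pearson correlation of 0.595 in either list at a distance of 1 Mb, and of 0.28 and 0.29 at 2 Mb. At 5 Mb the correlation was 0.25 and 0.19, and at 10 Mb it was -0.22 and -0.21. These are descriptions over windows of 1 library each, without the empty windows before the first island. Windows overlap the same wide islands at their borders, which adds to the likeness of neighbours.

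The longest run of windows covered over 200 kb or more in each list spanned 15 windows, from 50 to 65 Mb. Its coverage was 53.7% at day 0 and 59.2% at day 5. A second run of 13 windows, from 73 to 86 Mb, had 45.1% and 46.2%. The third, at the distal end from 95 Mb, had 47.2% and 48.5% of 9 windows, the last of which is partial. In the run from 50 to 65 Mb the median island was 15.6 kb at day 0 and 18 kb at day 5, while island number went from 330 to 303. Coverage there was therefore higher at day 5 with fewer and wider islands. In the run from 73 to 86 Mb, island number went from 275 to 299 at a median width of 13.2 kb in either list.

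The chromosome also held sparse stretches. From 13 to 22 Mb, 9 windows in a row had under 100 kb covered at both days, with 95.4 kb in 21 islands at day 0 and 208 kb in 32 islands at day 5. From 45 to 50 Mb, 5 windows had 98.6 kb in 15 islands and 88.2 kb in 10 islands. Islands in these 14 windows were narrow, with medians of 4.5 kb (day 0) and 6.0 kb (day 5), and the widest measured 27.0 kb and 23.4 kb. They also rarely recurred. Of the 36 islands at day 0, 5 (13.9%, exact interval 4.67 to 29.5%) met an island at day 5, and of the 42 at day 5, 5 (11.9%, 3.98 to 25.6%) met one at day 0. Elsewhere on the chromosome 78.0% (75.9 to 80.0%) and 73.7% (71.5 to 75.9%) did. Their median density was 71.0 reads per kb at day 0 and 80.9 at day 5, against 80.9 and 90.4 elsewhere. Narrow width, low density and thin coverage thus went together with little overlap there, and how much each contributes was not tested. The limits of these stretches were set with the coverage values known.

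Stretches without an island at either day, bounded by islands on both sides, reached 1375 kb. The longest ran from 46215601 to 47590800, and the next from 16338601 to 17359800 (1021 kb). The next 3 in length ran from 17842201 to 18673200 (831 kb), from 19282801 to 20106000 (823 kb) and from 14242201 to 15024000 (782 kb). All 5 lay in the sparse stretches from 13 to 22 Mb and from 45 to 50 Mb, which held 15 of the 31 island-free stretches of at least 300 kb. Each of the 5 was bounded by islands of 13.2 kb or less, and each border was set by an island of a single list. An island-free stretch of 610 kb with other neighbours ran from 63605401 to 64215600, directly after the widest domain cluster of the chromosome. Beyond it lay a myoblast island of 65.4 kb and a myotube island of 40.8 kb. Stretches of at least 300 kb took 15.7% of the span of chromosome 15, 26.0% and 26.2% of chromosomes 10 and 11, and 46.1% of the other autosomes together. Before the first island, at 3126001, nothing was listed at either day, and mouse assemblies begin with unsequenced centromeric DNA.

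**Figure D3:**
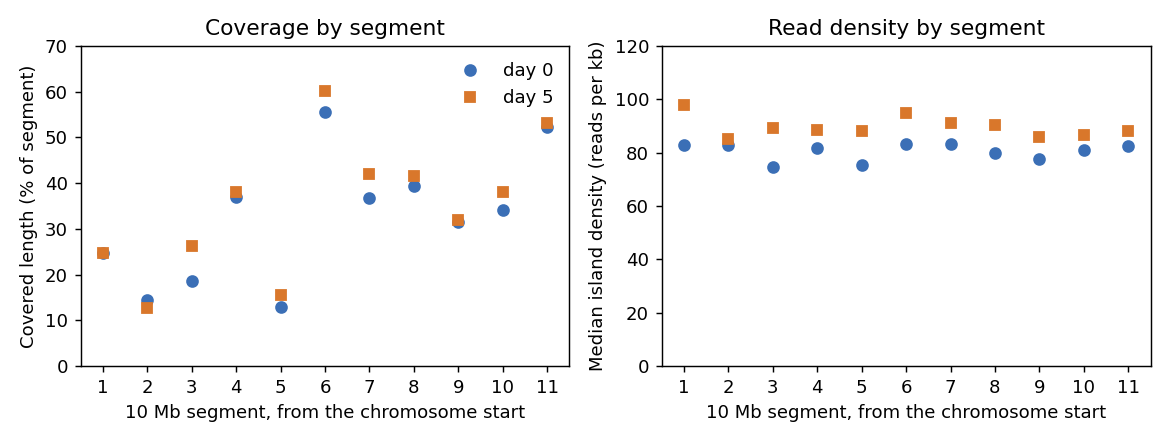
Covered share of each 10 Mb segment (%, left panel) and median read density of its islands (reads per kb, right panel), with segments numbered from the chromosome start (x axes), circles for day 0 and squares for day 5. Coverage runs from 13.0% to 55.5% at day 0 while median density stays between 74.7 and 83.3 reads per kb.

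Islands lay in domain clusters, defined here as at least 3 islands spanning at least 200 kb with gaps of up to 20 kb. There were 58 clusters at day 0 and 52 at day 5, which held 54.2% and 50.4% of the covered length. On the other autosomes clusters held 30.3% and 29.4% of it. Clusters were more fully covered on chromosome 15, at 84.5% and 86.7% of their span against 75.8% and 77.3%, and they consisted of fewer islands, with a median of 9 and 10 against 15 and 14. Of the day 0 clusters, 43 met a cluster at day 5, and of the day 5 clusters, 40 met one at day 0. The median day 0 cluster had 89.6% of its covered length covered again at day 5, with a range from 39.9% to the whole length. For the day 5 clusters the median share covered at day 0 was 88.7%, with a range from 28.6% to the whole length. The lowest shares, 39.9% and 28.6%, belonged to clusters that met no cluster at the other day. Such unmatched clusters numbered 15 of 58 at day 0 and 12 of 52 at day 5, and this count was not made on the other autosomes. Some of them were almost wholly covered at the other day, by too few islands for a cluster. The day 0 cluster from 27956401 to 28165200 was 99.1% covered, by 2 myotube islands. The day 5 cluster from 25344601 to 25551000 was 99.1% covered, by 1 myoblast island.

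The longest cluster at both days was the same domain. At day 0 it ran from 62111401 to 63605400, spanning 1494 kb in 44 islands with 1305 kb covered, and at day 5 from 62060401 to 63522000, spanning 1462 kb in 26 islands with 1355 kb covered. The myoblast cluster contained 127128 reads and the myotube cluster 249405 reads. Myotube islands covered 98.1% of the length covered at day 0. The second day 0 cluster, from 53841601 to 54841800, spanned 1000 kb, was 84.8% covered at day 0 and 84.6% at day 5, and met 2 clusters at day 5. The other 3 of the 5 longest at day 0 ran from 56122801 to 56995800, from 50896201 to 51607800 and from 37117201 to 37759800. Their span was 873, 712 and 643 kb, and 92.7%, 93.5% and 88.8% of their covered length was covered at day 5.

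At day 5, 2 further clusters exceeded 1 Mb. The cluster from 77673601 to 78705000 spanned 1031 kb in 32 islands, and the cluster from 96474001 to 97498200 spanned 1024 kb in 23 islands. Each lay over 2 separate clusters of the myoblast list. The first was 80.9% covered at day 0 and 84.6% at day 5, and the second 77.0% and 87.8%. The cluster from 54509401 to 55425000, of 916 kb in 9 islands, was 68.9% covered at day 0 and 96.0% at day 5, and the next in length, from 50949601 to 51601200, was 81.2% and 91.5% covered. At the level of single islands, 231 of 1628 myotube islands (14.2%) lay over 2 or more myoblast islands, and 198 of 1614 myoblast islands (12.3%) lay over 2 or more myotube islands. The other autosomes had 14.1% and 11.4%, so joining and splitting were about as common there. The island that joined most, 8 myoblast islands, ran from 80099401 to 80260800 at day 5.

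Of the islands on chromosome 15, 378 of 1614 (23.4%, exact interval 21.4 to 25.6%) at day 0 met no island at day 5, where the percentage over all chromosomes was 28.6%. At day 5, 454 of 1628 (27.9%, 25.7 to 30.1%) met none at day 0, where the percentage over all chromosomes was 31.5%. Overlap here means at least 1 bp, and intervals cover counting error over islands only. Within each of the 4 width classes and at both days, however, the shared share was lower on chromosome 15 than on the other autosomes. Of islands up to 5 kb, 50.5% (44.7 to 56.2%) at day 0 were shared on chromosome 15, against 60.4% (59.3 to 61.4%) on the other autosomes. At day 5 these shares were 43.9% (38.2 to 49.8%) and 52.9% (51.7 to 54.1%). Islands over 20 to 50 kb were shared at 96.6% and 97.1% at day 0, and at 91.1% (87.8 to 93.8%) and 96.8% (96.0 to 97.4%) at day 5. In the classes over 5 to 20 kb and over 50 kb the differences lay within the intervals. Islands of like width were thus shared no more often than elsewhere. Over all widths, chromosome 15 shared 76.6% and 72.1% of its islands, and the other autosomes 72.3% and 68.5%. Chromosome 10 shared 72.9% and 71.1%, and chromosome 11 shared 78.9% and 78.0%. Islands over 50 kb held 14.7% and 12.5% of the covered length on chromosome 10, and 11.4% and 12.7% on chromosome 11. The part of island width in the sharing of whole chromosomes was not tested.

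Islands seen at a single day were compared by distance to the nearest island of the other day. The median was 13.8 kb for the 378 myoblast islands and 15 kb for the 454 myotube islands. Within 5 kb lay 27.8% and 26.4% of them, and 63 (16.7%) and 97 (21.4%) lay more than 50 kb away. No such distance was measured on other chromosomes or for other positions. Single-day islands were less dense, at 75.4 reads per kb against 82.7 in shared islands at day 0, and at 84.3 against 92.3 at day 5. At least 20 kb was spanned by 14 of the myoblast islands and by 36 of the myotube islands. By segment, the share seen at a single day was highest at 40 to 50 Mb for day 0, with 48.1%, and at 20 to 30 Mb for day 5, with 51.4%. It was lowest at 70 to 80 Mb for day 0, with 13.2%, and beyond 100 Mb for day 5, with 13.0%.

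Edges of islands were kept to within 1200 bp more often than elsewhere in the genome. Of the 3228 starts and ends at day 0, 1186 (36.7%, 35.1 to 38.4%) had an edge of the same kind within 1200 bp at day 5. The other autosomes had 27.5% (27.1 to 27.9%), and the next highest chromosome, 11, had 30.4%. For day 0 islands over 20 kb the share was 49.3% (46.2 to 52.4%) on chromosome 15 and 34.2% (32.9 to 35.5%) on the other autosomes. For islands up to 20 kb it was 30.9% and 26.8%. For wide domains of chromosome 15, edges kept to within 1200 bp were thus about as many as edges that were not. The contrast over all widths was smaller within 3000 bp. There the share was 45.0% (43.3 to 46.8%) on chromosome 15, 43.5% (42.0 to 45.0%) on chromosome 11 and 40.5% (40.1 to 40.9%) on the other autosomes. Read density was also higher on this chromosome, and its part in the kept edges was not tested.

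Gains exceeded losses in length. Myotube islands covered 8.41 Mb that myoblast islands did not, and myoblast islands covered 5.77 Mb that myotube islands did not, a ratio of 1.46, against 1.21 on the other autosomes. The length covered at both days was 26.6 Mb. With a floor of 70 reads per kb on islands, raised 1.14-fold for myotubes, the ratio on chromosome 15 was 1.22. The factor 1.14 is the genome's median ratio of myotube to myoblast island density over ground covered by both lists. Under this floor, the ratio of myotube to myoblast coverage was 1.04 on chromosome 15 and 0.957 on the other autosomes. Most pieces were small, with a median of 3.0 kb in both directions. By kind, 311 of the 1465 gained pieces closed a gap between myoblast islands, 703 extended 1 side of one, and 451 stood alone, with 11.8%, 40.3% and 47.9% of the gained length. Losses divided alike, with 14.1%, 34.3% and 51.6%. The other autosomes had 14.3%, 36.7% and 49.0% for gains, so the kinds of change were close to those elsewhere.

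Long pieces were more common than elsewhere. Pieces of at least 20 kb held 26.0% of the gained length and 15.2% of the lost length, against 3.29% and 3.06% on the other autosomes and 4.13% and 6.53% on chromosome 10. Gained pieces of at least 30 kb numbered 26 of 1465 on chromosome 15 and 18 of 26247 on the other autosomes together. Lost pieces of that length numbered 8 of 1148 and 18 of 22207. Of the 26 gained pieces, 9 lay between 50 and 70 Mb, where 24.9% of the whole gained length lay. The wide islands of chromosome 15 allow longer pieces, and their part in these counts was not tested.

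**Figure D4:**
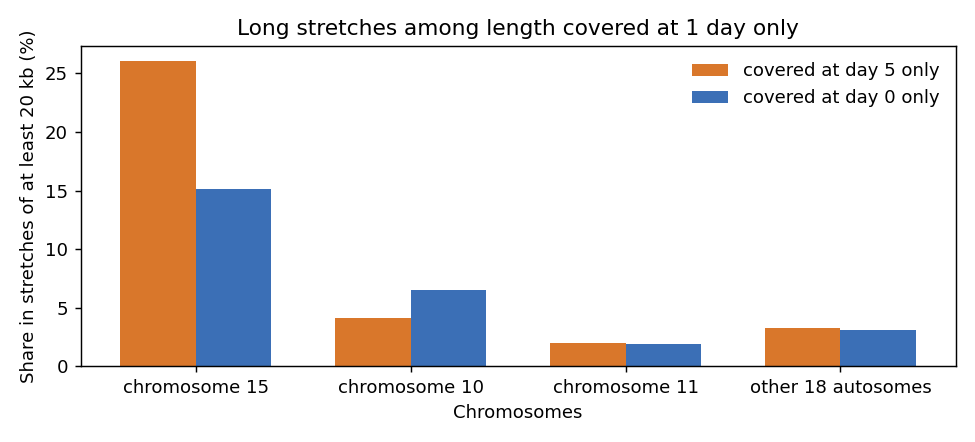
Share of the length covered at a single day that lies in pieces of at least 20 kb (%, y axis), for chromosome 15, for the next most covered chromosomes 10 and 11, and for the other 18 autosomes together (x axis), with 1 bar for length covered at day 5 only and 1 for day 0 only. Chromosome 15 reaches 26.0% and 15.2%, the other autosomes 3.29% and 3.06%.

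The longest gained piece, from 54993001 to 55092600 (99.6 kb), extended a myoblast island, and its myotube island of 131 kb had 145 reads per kb. The second, from 71976001 to 72073200 (97.2 kb), stood alone as an island of 83.2 reads per kb, 42.6 kb from the nearest myoblast island. The third, from 54841801 to 54914400 (72.6 kb), closed a gap between myoblast islands. The next 2, from 55357201 to 55425000 and from 60333001 to 60400800 (67.8 kb each), extended myoblast islands and lay in myotube islands of 156 and 175 reads per kb. These 3 extensions thus lay in myotube islands well above the median of 90.2 reads per kb, while the lone island lay below it. Among losses, the longest piece, from 85036201 to 85111200 (75 kb), left myotube islands on both sides. The next 4 stood alone, from 32218201 to 32287200 (69.0 kb), from 7318201 to 7368000 (49.8 kb), from 61821001 to 61869600 (48.6 kb) and from 12416401 to 12456600 (40.2 kb). The nearest myotube islands lay 49.2, 6.0, 4.8 and 12.6 kb from them, in this order. Densities of the myoblast islands that held these 5 lost pieces were 88.9, 78.5, 78.8, 106 and 79.0 reads per kb.

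Gains were spread unevenly. From 20 to 30 Mb coverage went from 18.7% to 26.2%, with 1165 kb gained and 418 kb lost, the highest ratio of gained to lost length of any segment, 2.78. In its core from 22 to 28 Mb, myoblast islands covered 1602 kb and myotube islands 2189 kb, and 5 of its 6 windows had more at day 5. From 50 to 60 Mb and from 60 to 70 Mb the ratio was 1.82 and 2.00. The segment from 10 to 20 Mb was the only one of the 11 with less coverage at day 5, with 236 kb gained and 396 kb lost. In the segments from 0 to 10 Mb and from 80 to 90 Mb gains and losses nearly balanced, with ratios of 1.03 and 1.07.

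Of 86 windows with at least 50 kb covered at either day, 14 (16.3%, exact interval 9.20 to 25.8%) had at least 1.5 times as much at day 5, where the percentage over all chromosomes was 22.6%. In 4 windows (4.65%, 1.28 to 11.5%) there was at least 1.5 times as much at day 0, where the percentage over all chromosomes was 13.0%. The share of higher windows was thus within its counting interval of the genome's, while the interval for lower windows lay below the genome's share. Windows of chromosome 15 were also more covered, and the part of this in the shares was not tested. With the scaled floor of 70 reads per kb, 8 windows were higher and 7 lower of 81, and over all chromosomes 256 were higher and 288 lower of 1232. This setting changes the island floor and the scaling together, and their parts were not separated. With the least dense myotube islands dropped until both lists covered the same length genome-wide, 12 windows were higher and 4 lower of 85, and over all chromosomes 279 were higher and 278 lower of 1552.

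The window from 20 to 21 Mb, inside the sparse stretch, had 2.4 kb covered by 2 islands in myoblasts and 73.8 kb by 12 islands in myotubes. Next by fold came the window from 91 to 92 Mb, from 98.4 kb to 371 kb (3.77-fold), and the window from 9 to 10 Mb, from 16.8 kb to 52.2 kb (3.11-fold). Covered length in the windows beginning at 29 and 26 Mb was 45.6 kb and 217 kb in myoblasts, and 89.4 kb and 418 kb in myotubes. The window from 9 to 10 Mb turned to 16.8 kb and 3.6 kb with the scaled floor, and the other 4 stayed higher at day 5. Of these 4, however, those at 20 Mb (2.4 kb and 35.4 kb) and 29 Mb (20.4 kb and 48.0 kb) fell under the 50 kb minimum. Only those at 91 and 26 Mb still passed it. Lower windows began at 4 Mb (95.4 kb to 27.6 kb), 87 Mb (115 kb to 46.8 kb), 32 Mb (290 kb to 126 kb) and 12 Mb (364 kb to 239 kb), and these 4 stayed lower with that floor. Thinly covered windows led the higher list, apart from those at 91 and 26 Mb.

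Read density relative to the genome was stable over most of the chromosome and higher at day 5 in a few places. Over ground covered by both lists, the log2 ratio of island density between myotubes and myoblasts had a median of 0.21 on chromosome 15 and 0.19 over the genome, and the latter was subtracted from the ratios below. In windows of 100 kb that had 10 kb or more covered in common by the lists, the median relative log2 ratio was -0.00030 over 506 windows, with the 5th percentile at -0.24 and the 95th at 0.56. A relative log2 ratio above 0.5 was found in 30 of the 506 windows (5.93%), where the percentage over all chromosomes was 0.637%. No window was below -0.5, where the percentage over all chromosomes was 0.106%. On the other 18 autosomes 6 of 5048 windows were above 0.5, so 30 of the 36 such windows of the genome lay on chromosome 15. Each position was given the mean density of its whole island, and reads were not counted by window. Windows within a wide island therefore share its density and are not independent.

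**Figure D5:**
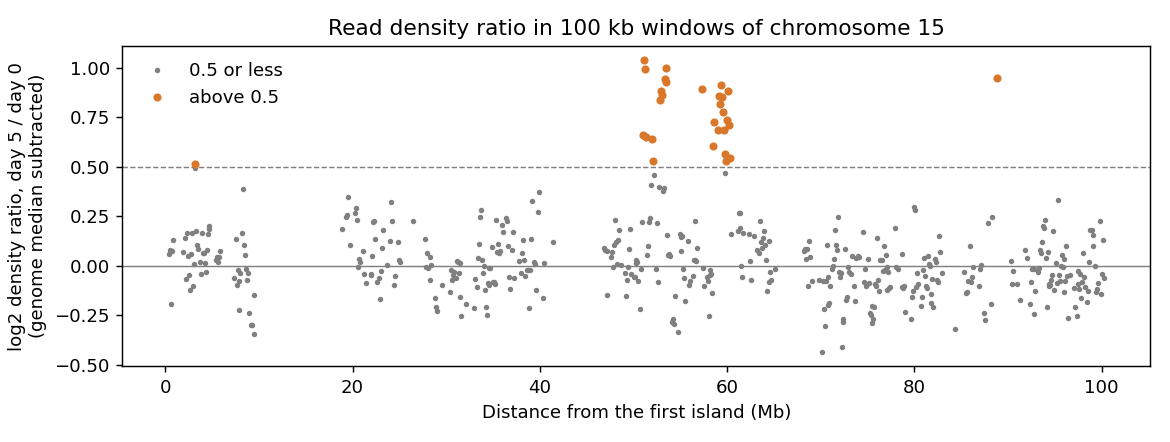
Log2 ratio of island read density, myotubes over myoblasts, with the genome median subtracted (y axis), for each 100 kb measured window of chromosome 15 (10 kb or more covered in common), against distance from the first island (Mb, x axis). The 30 windows above 0.5 form a pair of groups in the middle of the chromosome and a few single points, and no window lies below -0.5.

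These windows formed 10 runs and were not continuous. From 54 to 57 Mb, 12 of 28 measured windows were above 0.5 and the lowest was at -0.08. From 62 to 64 Mb, 13 of 15 were above it and the lowest was at 0.16. Between these zones, from 57 to 62 Mb, the median of 34 windows was -0.03 and 3 were above 0.5. On the flanks, from 47 to 54 Mb and from 64 to 70 Mb, none of 29 and 26 windows was above 0.5. The limits of the zones were set with these ratios known, so the counts inside and outside them are descriptions only. The run from 56.4 to 56.7 Mb went from 90.6 to 200.6 reads per kb, unscaled, and the run from 62.1 to 62.8 Mb from 101 to 200.7 reads per kb. The run from 54.1 to 54.5 Mb went from 90.2 to 187 reads per kb. Single windows above 0.5 at 6.3, 60.4 and 91.9 Mb and a pair from 61.6 to 61.8 Mb stood outside both zones. The window at 91.9 Mb, with 10.2 kb covered at both days, had island densities of 65.2 and 143 reads per kb. It lay inside the 1 Mb window with the second largest fold in covered length. Its myotube density is the mean of an island of 129.6 kb, of which 7.87% was covered at day 0. At 60.4 Mb the myotube density, 175 reads per kb, is likewise that of an island of 87.6 kb, 21.9% covered at day 0. Reads on the ground covered at both days were not counted separately.

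At day 5 the 10 densest islands of chromosome 15 lay between 54 and 64 Mb. The densest, from 56062201 to 56086200, spanned 24.0 kb with 7864 reads, or 328 reads per kb, and the myoblast island beneath it was, at 133 reads per kb, also among the 10 densest at day 0. The next, from 54360001 to 54377400, had 261 reads per kb over 17.4 kb, against 117 reads per kb at day 0. More than 200 reads per kb was reached by 14 islands at day 5 and by none at day 0. On the other 18 autosomes 12 islands at day 5 and 3 at day 0 reached it. The 14 islands all lay from 54 to 57 or from 62 to 64 Mb, zones whose limits were set with the density ratios known. At day 0 the densest islands were scattered, and 3 of the 10 densest were a single 600 bp window with 83 or 90 reads. The 83 myotube islands touching these zones held 17.1% of the reads of the chromosome in 11.2% of its covered length, and the 116 myoblast islands there held 11.4% in 10.6%. Outside the zones the median density was 80.3 reads per kb in myoblasts and 89.4 in myotubes, or 1.1 and 1.11 times that of the other autosomes. The higher density of chromosome 15 was therefore about as large without these zones. Without input, a change in DNA amount between the cultures and a change in macroH2A cannot be told apart in them.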

How the data were processed

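The deposited files list islands with chromosome, start, end and a whole-number read count per island, which the authors made for each ChIP library. Per the submitters' processing notes, CASAVA 1.4, Bowtie2 2.2.6, SICER 1.1 and MACS 1.4.2 were used with build mm9, without stated roles, and each list is named for 600 bp windows, 1200 bp gaps and an FDR of 0.01. Use of input in calling and duplicate handling are not given in the sources used here. Lists hold only what passed this cut-off. Lack of an island is therefore no evidence that macroH2A was absent, and rows may be missing. Islands on chromosome 15 numbered 1614 and 1628 with 2806116 and 3686269 reads, which is not library depth.

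Coordinates are printed counting from 1. Coverage was computed on the 600 bp grid, windows were placed from the chromosome start, and islands were given to segments by midpoint. Shares have exact Clopper-Pearson intervals at 95%, which cover counting error only. Members, lists and limits were chosen with earlier results of these data known. Named regions are, per rule, the 5 longest clusters per library, the 5 longest island-free stretches, the 5 longest gained and lost pieces, the 5 windows of largest fold per direction (4 passed downward), and the 5 most covered windows. The 5 least covered windows among those with islands at day 0, also in the rule, began at 17, 20, 47, 19 and 13 Mb with 2.4 to 7.2 kb, and 7 windows held none. Other regions were picked with their values in view. Gene coverage was planned but not run, since the annotation at hand was GRCm38. The code was tested on simulated islands. Computation used pandas 2.3.3 and NumPy 2.4.6 under Python 3.11.15, with intervals from SciPy 1.17.1 and plots from matplotlib 3.10.9.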

Additional observations from a re-analysis of the deposited data

How the results depend on the processing

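No paired analysis was possible because each group holds 1 library, and for the same reason variation between cultures was not measured. Of 63 recomputed values 49 stayed within tolerance, 14 moved and 0 reversed; tolerances were the exact interval for shares, 1.5 times for counts, and for lengths and ratios a 95% limit from island or piece numbers (4.88% and 4.86% for coverage, 6.88% for its ratio). The floor of 70 reads per kb, scaled at day 5, and the density count without its zones were added after seeing the data. That floor lowered coverage to 29.4% and 30.6% by construction and left the day 5 over day 0 ratio at 1.04. It gave 74.1% of day 0 islands shared, a gained over lost ratio of 1.22 and 55.5% of the lost length isolated. Dropping the 25% of islands with fewest reads genome-wide left 1372 of 1614 and 1384 of 1628 islands on chromosome 15. Of these, 79.4% and 74.4% were shared. With 50% of the island covered, 71.7% and 65.2% were shared, lower by construction. Merging islands within 5 kb left 35.3% of gained and 40.1% of lost length isolated and 31.2% of edges kept; edges within 3000 bp were kept at 45.0%, by construction. Windows of 0.5 Mb gave 29 higher (17.1%) and 17 lower (10.0%) of 170. At this size no share over all chromosomes was computed, so the comparison with the genome holds for 1 Mb windows only. Without 54 to 57 and 62 to 64 Mb, 5 windows of 100 kb stayed above 0.5, by construction. Cluster numbers at gaps of 10 kb were 39 and 36, and at 40 kb 72 and 64, against 58 and 52. The causes of the other shifts were not tested.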
